A study of Danio rerio with 6 samples.

Results

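Of 898 regions bound by Smad2 in zebrafish blastulas, 355 shared at least 1 bp with a region bound by Eomesa (39.5%, 95% Wilson interval 36.4 to 42.8%). These shared Smad2 peaks were chosen by the overlap of the peak lists of both factors, so the overlap and the presence of both signals are given as a description. Whole AB embryos, raised in E3 medium, were fixed with formaldehyde at high-sphere stage and used for chromatin. It was precipitated with an antibody against Smad2 or against Eomesa, in 2 reactions for each factor, and 2 inputs of whole chromatin were sequenced beside them. An embryo at this stage holds cells with and without Nodal signalling, so a tall peak from more cells and a tall peak from denser binding in fewer cells cannot be told apart. There was 1 list per factor, holding regions found in both reactions, and 1 coverage track per group, so no spread between reactions can be given and no test was run. Intervals cover the counting of sites only.

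Nodal ligands act through Activin-type receptors and a coreceptor of the EGF-CFC family, which leads to phosphorylation of Smad2. Smad2 then enters the nucleus and binds regulatory elements together with DNA-binding partners, among them the forkhead factor Foxh1. Eomesa is a zebrafish homologue of Eomesodermin, a T-box transcription factor that is laid down maternally in zebrafish and is known for its role in endoderm and mesoderm formation.

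The study's table of Smad2 peaks lists, for some peaks, the sequence that matched a Foxh1 binding matrix. The sequences below are all those listed for shared Smad2 peaks beside genes of the lists used here (Nodal signalling, mesoderm and organiser, endoderm, FGF signalling, neural ectoderm), with those of MIXL1, and they are shown because some peaks far apart in the genome carry the same letters. Each is written as the table gives it, with the last 8 letters in capitals, and the table gives neither its strand nor its place in the peak. The name before each sequence is a gene named beside the peak, followed by the peak. Where the table names several genes beside a peak, the one from the gene lists used here is given.
lft1, Smad2_peak407: tccAATCCACA
lft2, Smad2_peak263: tccAATCCACA
lft2, Smad2_peak264: ttgAATACACA
acvr1b, Smad2_peak497: ttgAATACACA
oep, Smad2_peak47: agaAATAAACA
ntla, Smad2_peak343: ctcAATCCACA
tbx16, Smad2_peak838: ctgAATACACA
lhx1a, Smad2_peak225: cacAATACACA
vox, Smad2_peak165: ttaATTACACA
vox and vent, Smad2_peak167: cgcAATAAACA
zic2a, Smad2_peak862: tccATTACACT
flh, Smad2_peak130: ctcAATACACA
flh, Smad2_peak131: ttcAATACACA
chd, Smad2_peak233: ctgAATAAACA
bon, Smad2_peak408: ccgAATACACA
MIXL1, Smad2_peak411: ccgAATACACA
bon, Smad2_peak409: ctaAATAAACA
MIXL1, Smad2_peak410: ctaAATAAACA
foxa, Smad2_peak189: ctgAATACACA
foxa, Smad2_peak190: ctgAATACACA
foxa3, Smad2_peak311: gtgAATACACA
wnt11, Smad2_peak681: ctgAATACACA
wnt11, Smad2_peak682: cgcAATAAACA
fgf8a, Smad2_peak143: ggcAATACACA
fgf17, Smad2_peak843: tgcAATAAACA
fgf17, Smad2_peak844: cagAATCCACA
spry2, Smad2_peak2: gtgAATACACA
il17rd, Smad2_peak98: gaaAATAAACA
irx3a, Smad2_peak776: tgcAATACACA
sox32, Smad2_peak801: ttgATTAAACA

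A sequence was listed for 208 of the 355 shared Smad2 peaks (58.6%), against 41.8% of all Smad2 peaks and 167 of the 543 lone ones, those without an overlap (30.8%). Lone Smad2 peaks are also narrower and lower, and the part of this in the shares was not tested. Among the 208 there were 136 distinct sequences. The letters AATACACA ended 74 of these sequences, AATAAACA ended 36, AATCCACA 29 and AATCAACA 21, and 18 such endings were found in all. The match beside lft1 and the match in 1 of the peaks beside lft2 were the same in all 11 letters. Both genes encode Lefty proteins, the secreted antagonists of Nodal. The match in the other peak beside lft2 was likewise the same as that beside acvr1b. Identical matches were common among the 208 peaks, with 1 sequence listed at 7 peaks and that of tbx16 and wnt11 at 6. The matched letters were also the same at bon and MIXL1 and at both foxa peaks, which is taken up below with the repeated tracks.

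The shared Smad2 peaks with a listed Foxh1 sequence were taller in Smad2, whereas the Eomesa heights had overlapping intervals. Height here is the highest value of a track within a peak, counted in tags, that is, in shifted sequence reads covering a position. The 208 peaks with a listed sequence had a median Smad2 height of 30 tags (95% interval of the median 28 to 32), against 19 tags (18 to 21) in the 147 shared Smad2 peaks without one. The overlapping Eomesa peaks had a median height of 23 tags (21 to 27) with a listed sequence and 25 tags (22 to 30) without. Median input was 9 tags (9 to 10) with a listed sequence and 8 tags (7 to 8) without. Peaks with a listed sequence were also wider, at a median of 422.5 bp against 319 bp, and a wider peak has more letters in which a match can be found. Lone Smad2 peaks differed in the same direction, with a median Smad2 height of 16 tags (14 to 17) and a width of 304 bp with a listed sequence, against 13 tags (12 to 13) and 257 bp without. The difference is thus not particular to the shared Smad2 peaks, and the part of width in it was not tested.

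The tracks were estimated to hold 12.3 to 19.0 M tags each (M, mega), and 1 tag covered 132 bp for Smad2 and for input but 38.9 bp for Eomesa. Values of the 3 tracks are therefore compared as ranks, or as multiples of the mean of their own track, and sites are compared with each other. The highest value of the Eomesa track was 78 tags, and 7 of the shared Smad2 peaks had a partner within 10% of it, so that these heights cannot be ranked well.

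The shared Smad2 peaks were wide and mostly well covered by their Eomesa partner. The partner is the overlapping Eomesa peak, or the tallest one at the 9 shared Smad2 peaks that met more than 1. Their median width was 378 bp, against 274 bp for the 543 Smad2 peaks without an overlap, called lone here. Partners had a median width of 439 bp, and the median of the bases shared was 316 bp. At 151 of the shared Smad2 peaks the whole Smad2 peak lay within the partner, and at 61 the whole partner lay within the Smad2 peak.

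At the edge of the rule, the smallest overlaps were those of Smad2_peak725 beside SRGAP3 with 2 bp, Smad2_peak215 with 5 bp, Smad2_peak95 with 11 bp and Smad2_peak192 beside wnt8a, a Wnt ligand of the ventral and lateral mesoderm, with 16 bp. Their partners were 2, 14, 86 and 16 bp wide and reached only 1, 4, 4 and 6 Eomesa tags. The nearest peaks on the other side of the rule were Smad2_peak674, 1 bp from an Eomesa peak, and Smad2_peak529, 24 bp from one. Within these lone peaks, which are wider than those partners, the Eomesa track reached 6 and 13 tags. Requiring that 50% of the shorter peak be shared left 344 shared Smad2 peaks.

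Smad2 and Eomesa maxima lay close together at most shared Smad2 peaks. The summit, the middle of the longest stretch at the highest value, was placed for Smad2 within the Smad2 peak and for Eomesa within the partner. The median distance between both summits was 50 bp (95% interval 45 to 60 bp), with quartiles of 23.8 and 116 bp and a largest distance of 582.5 bp. The summits were within 25 bp at 101 shared Smad2 peaks, within 50 bp at 181 and within 200 bp at 322. Tags were 38.9 bp long for Eomesa and 132 bp for Smad2, and the part of this in the distances was not tested.

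By the median, input maxima lay about as close to the Smad2 summits. Within the same Smad2 peaks, the highest input position lay at a median of 55 bp from the Smad2 summit (95% interval 47.5 to 62.5 bp), and the highest Eomesa position, searched in the Smad2 peak in the same way, at 45 bp (42.5 to 50 bp). The Eomesa position was within 50 bp at 198 of 355 shared Smad2 peaks (55.8%), against 50.9% of all 898 Smad2 peaks. Those 898 include lone Smad2 peaks with a median of 3 Eomesa tags and a lowest value of 0, where this position is poorly set. The input position was within 50 bp at 169 (47.6%), against 50.3% of all Smad2 peaks. The highest Eomesa position in the Smad2 peak was nearer to the Smad2 summit than the input maximum at 180 shared Smad2 peaks, and the input maximum was nearer at 169. At the 144 lone Smad2 peaks with at least 5 Eomesa tags, the highest Eomesa position lay at a median of 52.5 bp (37.5 to 65 bp). It was within 50 bp at 70 of these (48.6%). Within 100 bp, the Eomesa position lay at 273 shared Smad2 peaks (76.9%, 95% Wilson interval 72.2 to 81.0%). The input position did so at 240 (67.6%, 62.6 to 72.3%). Lone Smad2 peaks had 74.6% for input, and the 144 named above had 76.4% for Eomesa. A median summit distance of this size was thus also seen for input, while fewer input than Eomesa positions lay within 100 bp at shared Smad2 peaks.

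**Figure D1:**
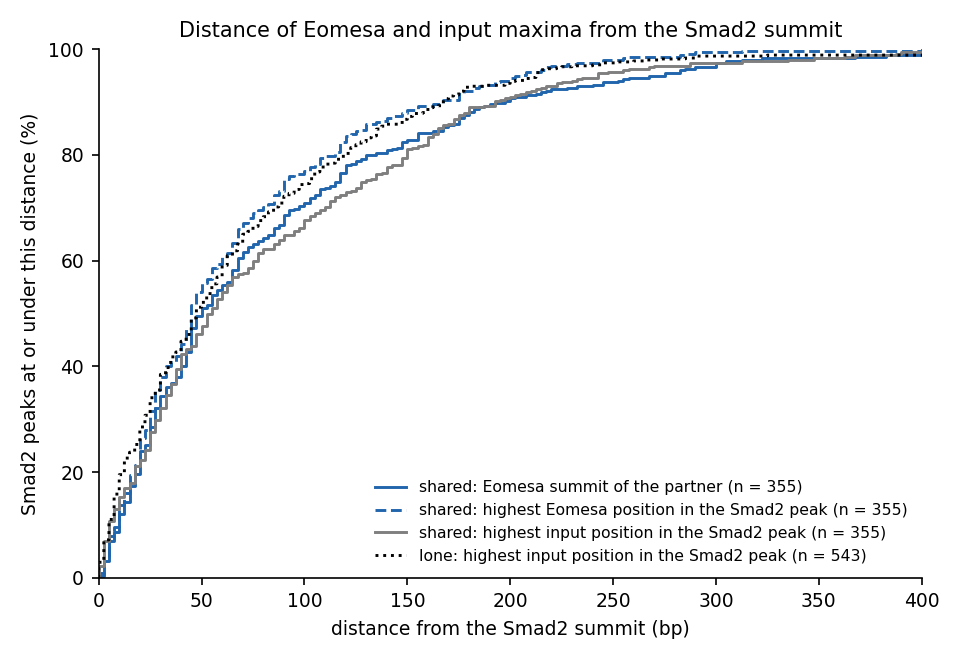
Distance of the Eomesa or input maximum from the Smad2 summit (bp, horizontal axis) against the percentage of peaks at or under that distance (vertical axis); blue lines are Eomesa and the grey line input at the 355 shared Smad2 peaks, and the dotted line is input at the 543 lone Smad2 peaks. The medians of the 4 curves lie between 45 and 55 bp. Within 100 bp, the highest Eomesa position in the Smad2 peak lies at 76.9% of shared Smad2 peaks and the input maximum at 67.6%.

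Shared Smad2 peaks with close summits were taller. Those with summits at most 25 bp apart had a median Smad2 height of 29 tags and those 25 to 50 bp apart 30 tags, against 23 tags at 50 to 100 bp, 21 tags at 100 to 200 bp and 20 tags beyond 200 bp. Eomesa heights moved less, with medians of 25, 26, 24, 21 and 23 tags in the same order of classes. Across the 355 shared Smad2 peaks, Spearman's rho of the distance was -0.20 with the Smad2 height and -0.13 with the Eomesa height. These points come from the same 3 tracks, and the position of a maximum is less certain where few tags set it.

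At 119 of the shared Smad2 peaks (33.5%) the partner had another Eomesa maximum, of at least 75% of its height, more than 60 bp from the summit and divided from it by a drop to 50% or less. No such count was made at lone Eomesa peaks, so it cannot be called particular to shared Smad2 peaks. The parts of counting error and of the short Eomesa tags (38.9 bp) in it were not tested. At the Smad2 summit the Eomesa track still stood at a median of 71.4% of the partner's height. At the Eomesa summit the Smad2 track stood at 83.3% of its height in the Smad2 peak. The Eomesa summit lay outside the Smad2 peak at 29 shared Smad2 peaks.

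The widest separations among shared Smad2 peaks with at least 20 tags of both factors began with Smad2_peak38. At Smad2_peak38 beside morc3b (chr1:47674197-47674594, Zv9) the summits were 582.5 bp apart, within an Eomesa peak of 1134 bp. Its height of 76 tags was close to the highest value of the Eomesa track. Smad2_peak37, also shared, met the same Eomesa peak and lay on the side of the Eomesa summit. At that summit Smad2 stood at 31 tags, above the 30 tags of Smad2_peak38 itself. At Smad2_peak640 (chr4:13041216-13041682) beside prickle1b, a planar cell polarity gene, they were 577.5 bp apart, with 38 Smad2 tags, 31 Eomesa tags and 12 input tags. At Smad2_peak312 (chr18:44764543-44764991) beside foxa3, a forkhead gene of the endoderm and axial mesoderm, they were 447.5 bp apart. There, 1 Eomesa peak of 883 bp spanned Smad2_peak312 and its neighbour Smad2_peak311, and its summit lay 20 bp from that of Smad2_peak311. Smad2_peak291 and Smad2_peak294 on chromosome 17 followed at 300 bp each, and both had the highest input of all shared Smad2 peaks.

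Mean tracks had both factors raised at the summits of the shared Smad2 peaks, as the overlap rule requires. For the signal of the other factor, the contrast with lone peaks follows from that rule. The Eomesa summit lay at the lower coordinate at 180 shared Smad2 peaks and at the higher one at 174. A mean over both sides is centred even where single summits lie apart. At the Smad2 summits of the shared Smad2 peaks, the mean Smad2 signal was 24.5 times the track mean, Eomesa 59.7 times and input 3.98 times. At the summits of lone Smad2 peaks the same tracks stood at 13.3, 5.28 and 3.12 times. At the Eomesa summits of the partners, the mean Smad2 signal was 18.8 times the track mean, Eomesa 84.0 times and input 3.88 times, whereas at lone Eomesa peaks they were 4.64, 50.7 and 3.25 times. Input was thus raised over all 4 kinds of summit. The Eomesa profile fell to 50% of its rise over 190 bp in all at the partners' summits and over 80 bp at lone Eomesa summits, while input widths were 240 and 255 bp. Lone Eomesa peaks were narrower (median 258 bp against 439 bp for partners) and lower (14 against 24 tags). The part of this and of the tag length in the profile widths was not tested.

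**Figure D2:**
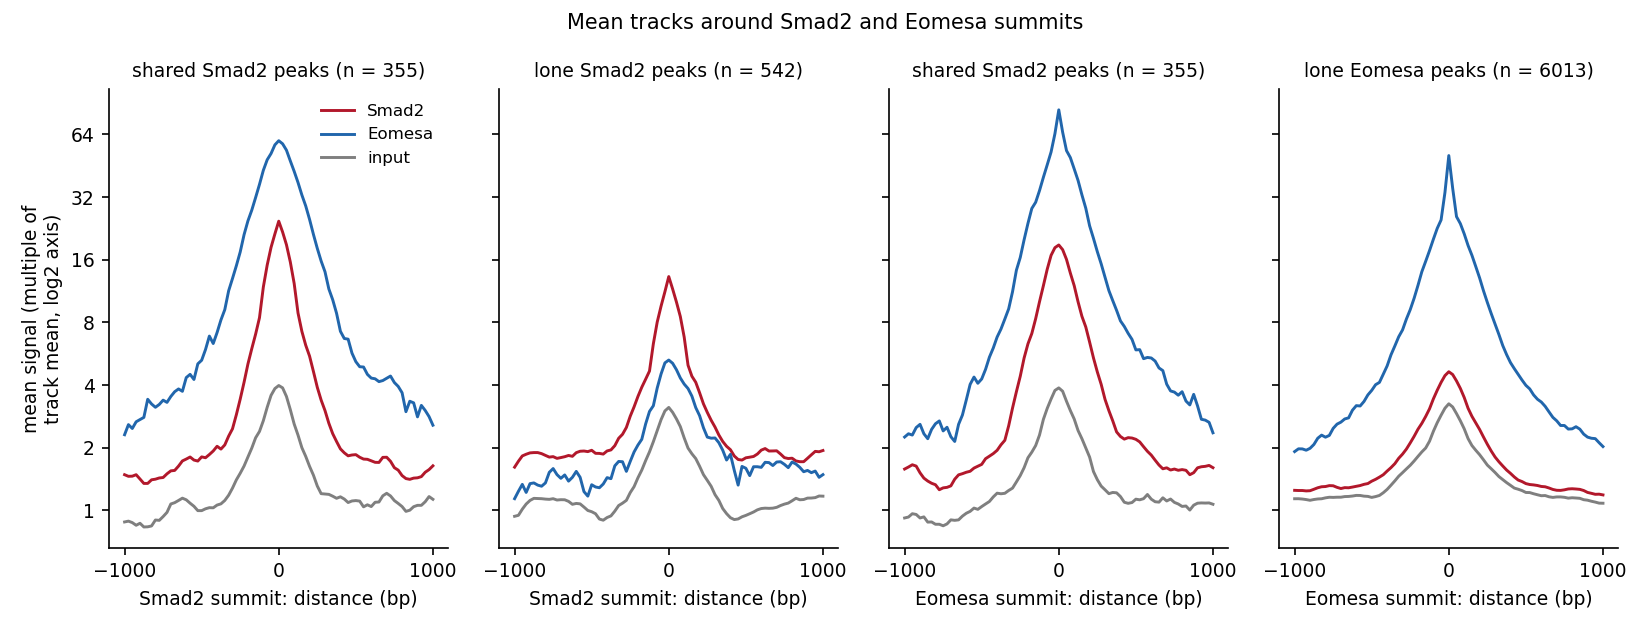
Mean Smad2 (red), Eomesa (blue) and input (grey) signal within 1000 bp of summits, in multiples of each track's mean on a log2 axis; the left pair of panels is centred on Smad2 summits and the right pair on Eomesa summits, each with shared Smad2 peaks left of lone peaks. At shared Smad2 peaks Smad2 reaches 24.5 and Eomesa 59.7 times the mean at the Smad2 summit, and at lone Smad2 peaks 13.3 and 5.28 times. The contrast in Eomesa follows from the overlap rule.

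Smad2 and Eomesa heights went together only loosely among the shared Smad2 peaks. Smad2 heights of the shared Smad2 peaks ranged over 6 to 114 tags with a median of 26 tags. Eomesa heights of the partners ranged over 1 to 76 tags with a median of 24 tags. Spearman's rho of the 2 heights was 0.30 over the 355 peaks, and both heights also went with input, with rho of 0.55 for Smad2 and 0.33 for Eomesa. As ranks in their own lists, the Smad2 height had a median percentile of 75.3 and the Eomesa height 78.3. The difference of the percentiles (Smad2 minus Eomesa) had a median of -3.82 (95% interval -6.78 to -1.16) and ran from -68.5 to 85.5. Shared peaks make up 39.5% of the Smad2 list but only 5.63% of the Eomesa list. The sign of this difference thus has no meaning in itself, and peaks are compared with each other. Both heights were above the middle of their lists at 229 shared Smad2 peaks, Smad2 alone at 54, Eomesa alone at 50 and neither at 22. In the top 10% of both lists were 36 of the shared Smad2 peaks.

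On the log2 scale, the Smad2 height over the Eomesa height, each as a multiple of its track mean, had a median of -1.74 (95% interval -1.91 to -1.64) with quartiles of -2.41 and -1.06. The sign of this ratio depends on the scale, because the shorter Eomesa tags spread less signal over the genome. With heights divided by the number of tags in the track instead, the median was 0.018. What the ratio gives is the order of the shared Smad2 peaks, from -3.62 to 2.38, the highest at Smad2_peak725 with its single Eomesa tag.

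The highest ratios among shared Smad2 peaks with at least 20 tags of both factors were led by Smad2_peak130. Smad2_peak130 (chr13:14830670-14831037) beside flh, the homeobox gene of the notochord, had 110 Smad2 tags, 26 Eomesa tags and 5 input tags, a log2 ratio of 0.29. Smad2_peak263 (chr17:8154964-8155371) beside lft2 followed with 70, 20 and 23 tags of Smad2, Eomesa and input, a ratio of 0.02. Smad2_peak728 on chromosome 6, with no gene named, had a ratio of -0.20. Smad2_peak705 beside ephb4a, an Eph receptor gene, had 60, 21 and 11 tags and a ratio of -0.28. Input at Smad2_peak263 and Smad2_peak728 was 23 and 26 tags, well above the median of 9 tags.

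At the opposite end no gene was named beside any of the 4 peaks. Smad2_peak231 (chr15:40943528-40943980) had 21 Smad2 tags, 65 Eomesa tags and 14 input tags, a log2 ratio of -3.42. Smad2_peak554 on chromosome 25 had a ratio of -3.29, Smad2_peak759 on chromosome 7 of -3.21 and Smad2_peak783 on the same chromosome of -3.15. Eomesa reached 54 to 68 tags at these peaks, far above the median of 24 tags, and Smad2 only 21 to 24 tags, below the median of 26 tags.

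**Figure D3:**
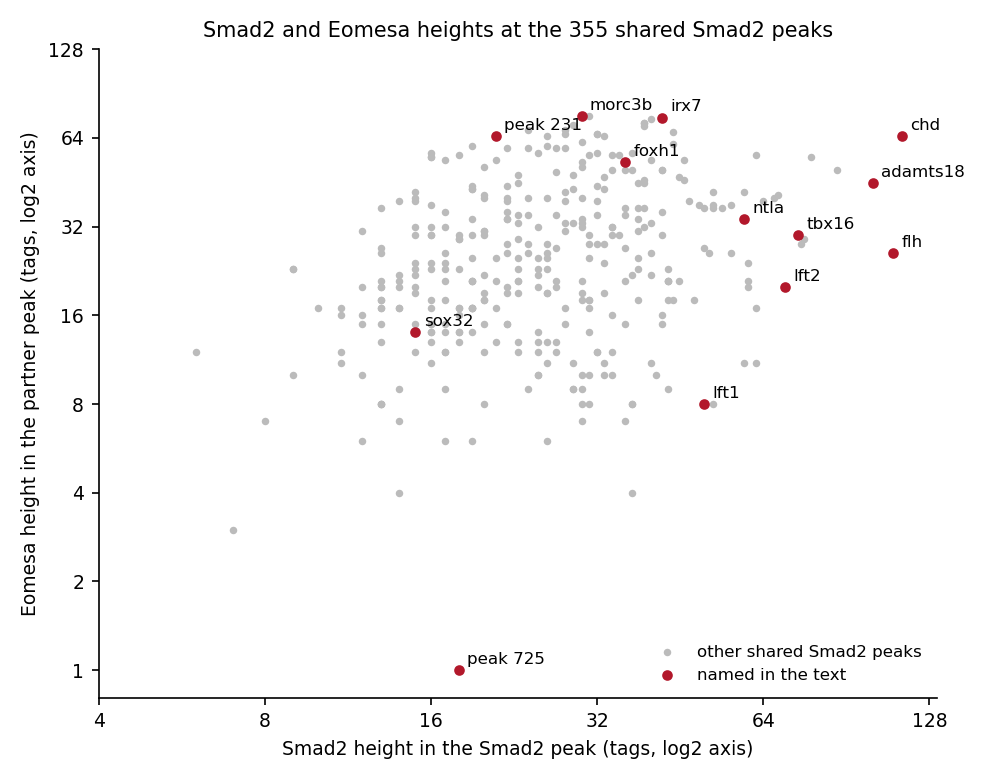
Smad2 height in the Smad2 peak (tags, horizontal log2 axis) against Eomesa height in the partner (tags, vertical log2 axis) for the 355 shared Smad2 peaks, with peaks named in the text in red. Heights of 6 to 114 Smad2 tags meet 1 to 76 Eomesa tags with a loose relation (rho 0.30), and chd and adamts18 lie high on both axes.

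The tallest shared Smad2 peaks, ranked by the lower of both multiples, were led by chd, which encodes the BMP antagonist Chordin of the organiser. Smad2_peak233 beside chd (chr15:46180191-46180704) had 114 Smad2 tags, 65 Eomesa tags and 15 input tags, and its summits were 2.5 bp apart. It was the tallest of all Smad2 peaks. Smad2_peak785 beside adamts18, a metalloprotease gene, came next with 101 Smad2 tags, 45 Eomesa tags and 30 input tags, and its input stood at 16.9 times the track mean. After Smad2_peak130 beside flh came Smad2_peak174 beside atrx, a chromatin remodeller, with 87, 50 and 11 tags, and Smad2_peak141 on chromosome 13, with no gene named, with 78, 55 and 9 tags.

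Shared Smad2 peaks beside genes of the Nodal pathway itself differed widely in their Eomesa signal. Smad2_peak407 (chr20:35102427-35103109) beside lft1 had 50 Smad2 tags against only 8 Eomesa tags, with 28 input tags, and its summits were 275 bp apart. As multiples of the track means, the log2 ratio of Eomesa over input there, 0.63, was the lowest of all shared Smad2 peaks. Its sign depends on the scale, because Eomesa tags are shorter than input tags. Beside lft2, Smad2_peak263 had the 70, 20 and 23 tags given above, whereas Smad2_peak264 (chr17:8157945-8158448) had 36 Smad2 tags, 37 Eomesa tags and 5 input tags. The 2 peaks beside lft2 thus had different balances of both factors at the same gene.

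Beside oep, which encodes the EGF-CFC coreceptor of Nodal, Smad2_peak46 (chr10:1984799-1985186) had 23 Smad2 tags, 45 Eomesa tags and 5 input tags, with both summits at the same position. Smad2_peak47 (chr10:1990108-1990346), also beside oep, had 29, 48 and 5 tags of Smad2, Eomesa and input. Smad2_peak108 beside foxh1, the gene of the Smad2 partner, had 36, 53 and 24 tags. Smad2_peak497 beside acvr1b, an Activin and Nodal receptor gene, had 37 Smad2 tags, 8 Eomesa tags and 11 input tags. Of the percentiles, each in its own list, that of Eomesa was thus the higher at oep and foxh1, and that of Smad2 at lft1 and acvr1b.

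The mesoderm and organiser list, the longest with 38 of the 89 genes, held 21 of the 38 shared Smad2 peaks beside listed genes. It also held 27 of all 48 Smad2 peaks beside listed genes, so the 21 were near that background. At these 21 peaks the Smad2 rank was usually the higher one. Among the 21 peaks of this list the median Smad2 height was 52 tags, the median Eomesa height 34 tags and the median input 10 tags, and the Smad2 percentile exceeded the Eomesa percentile at 15, against 147 of all 355 shared Smad2 peaks (41.4%). Beside ntla, the zebrafish Brachyury gene, Smad2_peak342 (chr19:30638520-30638892) had 59 Smad2 tags, 34 Eomesa tags and 15 input tags with summits 5 bp apart. The other peak beside ntla, Smad2_peak343, had 52, 8 and 9 tags, so that Eomesa was near its lower end in the list (percentile 17.5) while Smad2 was at percentile 96.5. Smad2_peak838 (chr8:54036454-54036878) beside tbx16, a T-box gene of the paraxial mesoderm, had 74 Smad2 tags, 30 Eomesa tags and 11 input tags. Smad2_peak131 beside flh had 76, 29 and 11 tags.

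The ventral genes vox and vent, homeobox repressors of the organiser, had 3 shared Smad2 peaks within 11.2 kb on chromosome 13. Smad2_peak167 had 68 Smad2 tags, 41 Eomesa tags and 18 input tags, and Smad2_peak165 (chr13:54045509-54045917) had 39, 37 and 15 tags. Smad2_peak166 between them had only 13 Smad2 tags against 26 Eomesa tags, with 6 input tags and summits 322.5 bp apart. The Wnt ligand gene wnt11, which acts in gastrulation movements, had Smad2_peak681 with 67, 40 and 10 tags of Smad2, Eomesa and input and Smad2_peak682 with 62, 56 and 24 tags. The remaining peaks of this list lay beside lhx1a, osr1, bon, foxa, foxa3, zic2a and wnt8a, with 26 to 64 Smad2 tags.

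The endoderm list had 2 shared Smad2 peaks, which differed in height, while bon and foxa3, which also act in the endoderm, stand in the list before. Smad2_peak801 (chr7:65343338-65343964) beside sox32, the Sox gene needed for endoderm in zebrafish, had 15 Smad2 tags, 14 Eomesa tags and 8 input tags, with summits 217.5 bp apart. Both heights were below the middle of their lists. Smad2_peak434 beside pou5f1, a POU factor gene of the early embryo, had 35, 30 and 9 tags, above the medians of all shared Smad2 peaks for both factors. In the neural list, Smad2_peak510 (chr23:37902572-37903011) beside irx7, an Iroquois gene, stood out with 75 Eomesa tags, close to the highest value of the Eomesa track. It had 42 Smad2 tags and 14 input tags. Smad2_peak776 beside irx3a had 25 Smad2 tags, 20 Eomesa tags and 10 input tags.

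Genes of FGF signalling and its feedback had 6 shared Smad2 peaks, and Smad2 had the higher rank at 5, against 41.4% of all shared Smad2 peaks. Median input at these 6 peaks was 16 tags, against 9 tags over all shared Smad2 peaks, and its part in the ranks was not tested. The ligand gene fgf17 had Smad2_peak844 (chr8:54943910-54944370) with 75 Smad2 tags, 28 Eomesa tags and 13 input tags and Smad2_peak843 with 40, 22 and 16 tags. Smad2_peak143 beside the ligand gene fgf8a had 43, 21 and 23 tags, with the highest input position 490 bp from the Smad2 summit. Among the feedback inhibitors, Smad2_peak552 beside dusp6, a phosphatase of MAP kinases, had 44, 18 and 17 tags, and Smad2_peak2 beside spry2 had 37, 8 and 16 tags. Smad2_peak98 beside il17rd had 16, 23 and 9 tags, and was the exception with the higher Eomesa rank.

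In all, 34 of the 89 listed genes had a Smad2 peak named beside them, and 28 had at least 1 shared Smad2 peak. Of the 48 Smad2 peaks beside these genes 38 were shared (79.2%), against 39.5% of all Smad2 peaks. The lists were made with earlier results of these data known, so this share is a description of the listed genes. Among the listed genes, Smad2 peaks beside ndr1, tbx6, gsc, foxd3, fgf3 and fgf24 were lone only. The gene spaw was not in the lists, and Smad2_peak706 beside it was shared, with 62 Smad2 tags, 11 Eomesa tags and 6 input tags. MIXL1, which repeats bon, was not counted in the list. No Smad2 peak was named beside the T-box genes eomesa, eomesb and tbr1b. The 38 peaks had median heights of 42 Smad2 tags, 30 Eomesa tags and 10 input tags, against 26, 24 and 9 tags over all 355 shared Smad2 peaks.

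**Figure D4:**
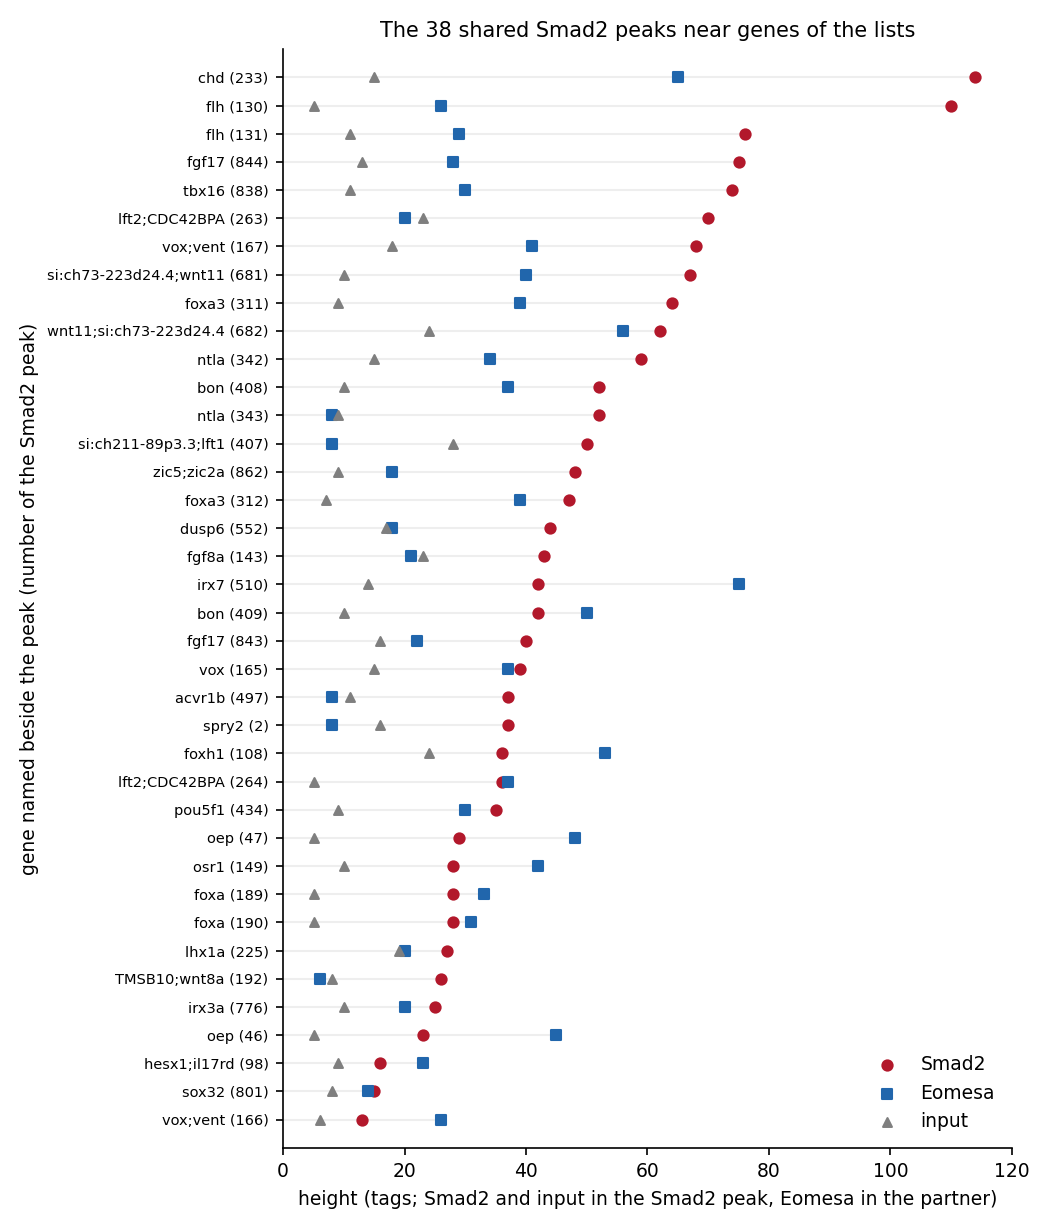
Height in tags (horizontal axis) of Smad2 (red circles) and Eomesa (blue squares) beside input (grey triangles) for each of the 38 shared Smad2 peaks near a listed gene (vertical axis, with the number of the Smad2 peak). Smad2 runs over 13 to 114 tags, with 42 at irx7 and 50 at lft1. Eomesa has 75 tags at irx7 and 8 at lft1, where input has 28. Eomesa tags are shorter than Smad2 and input tags, so heights are compared between peaks within a track.

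The regions that were carried to ChIP-qPCR as common peaks were Smad2_peak130 beside flh, Smad2_peak165 beside vox, Smad2_peak342 beside ntla and Smad2_peak411 (chr20:44305178-44305826) beside MIXL1. Their Smad2 heights were 110, 39, 59 and 52 tags, their Eomesa heights 26, 37, 34 and 38 tags and their input heights 5, 15, 15 and 10 tags. All 4 were at percentile 91.2 or above in the Smad2 list and at 81.3 or above in the Eomesa list, with summits at most 47.5 bp apart.

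Both factors were above input at most shared Smad2 peaks. Both lists were called against input, so this was set by the calling and is given as a description. Lone peaks of both lists were narrower and lower, and the part of this in the differences below was not tested. As multiples of the track means, Smad2 over input had a median log2 ratio of 2.09 (95% interval 1.97 to 2.18), against 1.59 (1.54 to 1.69) at lone Smad2 peaks. At least 2-fold over input were 340 of the shared Smad2 peaks (95.8%), against 88.4% of all Smad2 peaks. At least 4-fold were 195 (54.9%), against 38.8% of all Smad2 peaks and 28.2% of the lone ones. Eomesa over input had a median log2 ratio of 3.90 (3.76 to 4.05) at the partners, against 3.34 (3.29 to 3.38) at lone Eomesa peaks. At least 2-fold were 353 of the shared Smad2 peaks (99.4%), against 98.6% of all Eomesa peaks, so this count was near its background. Input below 3 tags was set to 3 tags in these ratios, at 9 shared Smad2 peaks for Smad2 and at 10 for Eomesa.

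Input itself was somewhat higher at shared Smad2 peaks, with a median of 9 tags (95% interval 8 to 9) against 7 tags (6 to 7) at lone Smad2 peaks. At least 20 input tags were found at 27 shared Smad2 peaks (7.61%), against 4.23% of all Smad2 peaks. The highest were Smad2_peak291 (chr17:50533735-50534291) and Smad2_peak294 (chr17:50577878-50578434), each with 43 input tags, and Smad2_peak785 with 30. At Smad2_peak291 the Smad2 height of 38 tags came to a log2 ratio over input of only 0.42, and at Smad2_peak294 the 42 tags came to 0.56. The first of these was the lowest ratio of all shared Smad2 peaks.

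Shared Smad2 peaks often lay near further Eomesa peaks. Leaving out the partners, 185 of 355 shared Smad2 peaks had an Eomesa peak within 10 kb (52.1%, 95% Wilson interval 46.9 to 57.3%), against 34.2% of all Smad2 peaks and 22.5% (19.2 to 26.2%) of lone ones. A Smad2 peak with an Eomesa partner lies near Eomesa binding by the rule, so lone Eomesa peaks are the nearer comparison. Of these 34.3% (33.1 to 35.5%) had a further Eomesa peak within 10 kb, against 54.6% (49.4 to 59.7%) of the Eomesa peaks that met a Smad2 peak. Over all Eomesa peaks the share was 35.4%. Partners were also taller and wider than lone Eomesa peaks, with medians of 24 against 14 tags and 439 against 258 bp. The part of this in the shares was not tested. With neighbours at least 1 kb away, the shares were 43.4% of shared Smad2 peaks, 19.7% of lone Smad2 peaks and 19.0% of lone Eomesa peaks. Further Smad2 peaks within 10 kb were less different, at 25.4% of shared and 21.4% of lone Smad2 peaks.

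**Figure D5:**
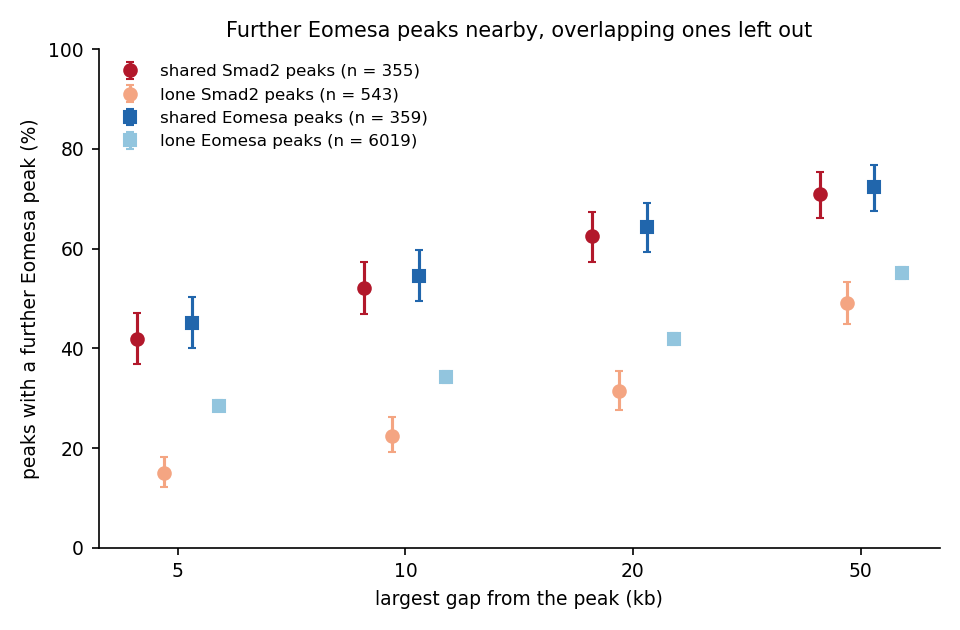
Percentage of peaks with a further Eomesa peak (vertical axis) within 5, 10, 20 or 50 kb (horizontal axis), overlapping peaks left out, with 95% Wilson intervals that cover counting of peaks only; red and orange circles are shared and lone Smad2 peaks, dark and light blue squares shared and lone Eomesa peaks. Shared Smad2 peaks lie above lone ones at every distance, from 42.0% against 14.9% at 5 kb to 71.0% against 49.2% at 50 kb.

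Most shared Smad2 peaks with a neighbour had 1 (108 peaks) or 2 (57 peaks) within 10 kb, and the most was 5. At 116 of the 185 the partner was taller than every neighbour, but no such count was made at lone Eomesa peaks. Partners had a median height of 24 tags over all shared Smad2 peaks and neighbours 17 tags, so the count is a description. The neighbours within 10 kb comprised 260 Eomesa peaks, of which 55 met another Smad2 peak and 205 met none. At those 205, Smad2 had a median height of 10 tags (95% interval 9 to 12), against 7 tags over all 6019 lone Eomesa peaks. Input was 7 tags at both, and Eomesa was 16 tags (14 to 18) against 14. Some of these neighbours lie so close that Smad2 tags of the shared peak can reach them. At the 155 that were at least 1 kb from every Smad2 peak, a limit set after seeing the data, Smad2 had a median of 11 tags (10 to 12), Eomesa 17 tags (15 to 19) and input 8 tags (7 to 9). Smad2 was thus higher near shared Smad2 peaks than over all lone Eomesa peaks also without the closest neighbours, beside slightly higher Eomesa and input.

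The most crowded place was the tbx16 region on chromosome 8. Smad2_peak837 had 9 further Eomesa peaks within 50 kb, and Smad2_peak838 beside tbx16 and Smad2_peak840 had 8 each, as did Smad2_peak554 and Smad2_peak555 on chromosome 25. The 3 differed in balance, with 16 Smad2 and 38 Eomesa tags at Smad2_peak837, 74 and 30 tags at Smad2_peak838 and 42 and 16 tags at Smad2_peak840, while their inputs were 6, 11 and 15 tags. At the other extreme, 103 shared Smad2 peaks had no further Eomesa peak within 50 kb.

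Some shared Smad2 peaks lay near each other. This was not particular to them, because a further Smad2 peak lay within 10 kb at 25.4% of shared and 21.4% of lone Smad2 peaks. With gaps of at most 10 kb, 64 of them formed 30 groups, 26 of 2 and 4 of 3. The groups of 3 were at vox and vent on chromosome 13, at nhsl1b on chromosome 20, at sall4, a zinc-finger gene of early embryos, on chromosome 23 and at shisa2 and MTMR8 on chromosome 5. Pairs were found beside oep, flh, lft2, foxa3, ntla, bon, wnt11 and fgf17, which are described above. Further pairs lay beside bmp2b, a BMP ligand gene that patterns the ventral side, beside tgif1, the homologue of a mammalian homeodomain repressor that binds Smad2, and beside klf2b.

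Some shared Smad2 peaks repeated each other's tracks. Mapping kept reads that matched at up to 2 places, and for 8 pairs of shared Smad2 peaks each of the 3 tracks within 250 bp of the summit differed by no more than 25% of its mean sum, in the same or the inverted direction. The peaks beside bon, a Mix-type homeobox gene of the endoderm, were mirrored beside MIXL1 on the same chromosome, Smad2_peak408 by Smad2_peak411 and Smad2_peak409 by Smad2_peak410. The first of these pairs had 52 Smad2 tags and 10 input tags at both places, with 37 Eomesa tags at Smad2_peak408 and 38 at Smad2_peak411. Both foxa peaks, Smad2_peak189 and Smad2_peak190, had 28 Smad2 tags and 5 input tags and ran in opposite directions. The others were Smad2_peak291 and Smad2_peak294 with the highest input, Smad2_peak198 and Smad2_peak199 with identical tracks, Smad2_peak383 and Smad2_peak493, Smad2_peak538 and Smad2_peak539, and Smad2_peak543 and Smad2_peak544. Whether such a pair is bound at both places or at 1 of them cannot be told apart in these tracks. Counting each pair once left 347 shared Smad2 peaks. Repeated tracks were not particular to shared Smad2 peaks, with 9 such pairs among lone ones. The pairs took in 16 of 355 shared (4.51%) and 18 of 543 lone Smad2 peaks (3.31%).

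Across the 25 chromosomes, the number of shared Smad2 peaks ran from 7 on chromosomes 4 and 21 to 24 on chromosomes 5 and 13. The share of Smad2 peaks that were shared was lowest on chromosome 25, with 8 of 54 (14.8%), and highest on chromosome 18, with 12 of 21 (57.1%).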

How the data were processed

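Smad2, Eomesa and input libraries of AB embryos (2 each, grouped by title) were used. The submitters' processing notes name Bowtie and Zv9. By the study's methods, reads with up to 2 places were kept, peaks were called with MACS against input, and those in both reactions were listed. The authors deposited 1 region list per factor and 1 signal (coverage) track per group, in which shifted tags are piled up in 5-bp steps without scaling. Whether a track holds both reactions is not stated. The lists gave coordinates and width, with 2 Smad2 and 12 Eomesa entries of width 0, which met no peak.

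Lists were intersected, and heights, summits, gaps and repeated tracks were computed in Python 3.11.15 with numpy 2.4.6 and pandas 2.3.3, after the functions were tested on simulated data. The tag length was measured from isolated runs at 1 tag, and tags are the summed signal over it. Shares have 95% Wilson intervals and medians 95% order-statistic intervals. Both kinds of interval cover the counting of sites only and hold no counting error of tags. Gene names and matched sequences were taken from the study's Smad2 peak table, and coordinates are 1-based Zv9.

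The shared Smad2 peaks, gene lists and rules were chosen with earlier results of these data known. Peaks were named if taken to ChIP-qPCR, if extreme in height (5), ratio (4 at each end), summit distance (4), neighbours (3), input (3) or overlap (4), or if beside a listed gene. Ratio and distance were ranked among peaks with at least 20 tags of both factors.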

Additional observations from a re-analysis of the deposited data

How the results depend on the processing

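No paired analysis was possible because the deposited lists and tracks carry no replicate number, and for the same reason no replicate could be left out. Of 28 alternatives to the 6 main values, 15 stayed within the interval of the main value or within 1.5 times the main count, and 13 moved beyond it. The number of shared Smad2 peaks stayed between 344 and 349 under a stricter overlap, a minimum width and chromosomes 1 to 25. The median summit distance became 41.0 bp with signal-weighted centres and 42.5 bp at the 170 peaks with at least 20 tags of both factors. The median log2 Smad2 over Eomesa ratio became -1.51 with means over the shared interval, 0.018 with heights divided by the tags in the track, -2.07 with scaled input subtracted and -1.53 with flanks in place of the track mean, so its sign depends on the scale. The median log2 ratio over input became 2.23 with means and 1.90 with flanks for Smad2, and 3.32 with flanks for Eomesa. Ratios over input were not computed with heights divided by the tags in the track. The share with a further Eomesa peak was 42.0% within 5 kb, 62.5% within 20 kb, 36.9% for neighbours taller than the median Eomesa peak and 43.4% for those at least 1 kb away. Counting repeated tracks once, and searching both summits within the Smad2 peak, were chosen after seeing the data and changed none of the values beyond their intervals. With 1 track per factor, the depth sets how well a summit is placed, and differences of a few tags between single peaks are within counting error.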

Other observations

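Smad2 peaks beside histone genes were all lone. Of 28 Smad2 peaks with a histone gene named beside them, 0 shared a base with an Eomesa peak (95% Wilson interval up to 12.1%), against 355 of the 870 other Smad2 peaks (40.8%). These 28 peaks had median heights of 16.5 Smad2 tags, 3 Eomesa tags and 8 input tags, and 1 of them had an Eomesa peak within 10 kb. On chromosome 25, which had the lowest share of shared Smad2 peaks, 20 of the 54 Smad2 peaks lay beside histone genes. Without them 8 of 34 were shared there (23.5%). Leaving the histone peaks out, 23.5% of lone Smad2 peaks had an Eomesa peak within 10 kb, against 22.5% with them.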
